A study of Rattus norvegicus with 15 samples.

Results

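The Wnt ligands, their receptors and their secreted modulators were followed in RNA-seq libraries of rat prostate. The set was taken by gene symbol and not by measured values: every gene named Wnt, Fzd, Sfrp or Dkk with a number, together with Frzb, Wif1, Lrp5, Lrp6, Rspo1, Rspo2, Rspo3, Lgr4, Lgr5 and Axin2. It held 44 of the 22436 genes in the deposited table: 17 Wnt ligands, 12 Frizzled and Lrp receptors, 9 secreted inhibitors, 5 R-spondin and Lgr genes, and Axin2. All 15 samples were prostate tissue of SD rats. The 5 Control and 5 Model samples carry the treatment entry "No", and the labels do not say how the Model animals, of a chronic prostatitis and chronic pelvic pain model, were made. The 5 LIPUS samples came from rats given low intensity pulsed ultrasound for 4 weeks, at 1.0 W/cm2 by their titles and 1.5 W/cm2 by their treatment entries. Their titles do not say whether these rats were also Model animals. Age is not given. The labels do not tie each sample to its own animal, and the p-values therefore speak of the spread among these libraries, part of which may be technical. The series asks how the intensity of the ultrasound acts on this model. Model and LIPUS were each compared with Control, and LIPUS with Model.

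Wnt proteins are secreted, lipid-modified ligands that bind a Frizzled receptor together with the co-receptor Lrp5 or Lrp6. In the canonical branch this halts the destruction of beta-catenin, which then acts with TCF/LEF factors on target genes, among them Axin2, a negative feedback gene that is widely used as a readout. Sfrp proteins, Frzb and Wif1 bind the ligands, most Dkk proteins bind Lrp5 and Lrp6, and R-spondins, through Lgr receptors, keep Frizzled receptors at the cell surface. In the prostate the pathway acts between stroma and epithelium during bud formation and regrowth.

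Before the values, the sequence just upstream of 4 members is shown as a description. They are Fzd7, which had no read in any Model or LIPUS library, and Fzd5, which was lower in both of those groups. The others are Rspo1, the one member that was higher in LIPUS, and Axin2, the pathway's feedback gene. Each sequence is the 250 bases before the annotated start, 5′ to 3′ on the gene's strand. It comes from RefSeq on build GRCr8, a later build than the one the data were processed with. Capitals mark matches to the TCF/LEF motif, searched in its spelling CTTTGAA and its related spelling CTTTGAT, as well as in the spelling CTTTGTA and in the last of these, CTTTGTT. They also mark matches to the GC box, GGGCGG, and both motifs were searched on both strands. Neighbouring GC boxes may overlap, as the last pair of Fzd5 does.
Axin2, chr10:94398535-94398784, plus strand: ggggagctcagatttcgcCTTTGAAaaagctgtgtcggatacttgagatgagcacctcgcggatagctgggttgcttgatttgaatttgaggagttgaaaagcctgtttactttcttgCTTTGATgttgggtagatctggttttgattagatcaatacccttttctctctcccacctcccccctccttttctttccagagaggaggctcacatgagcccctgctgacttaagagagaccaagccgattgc
Fzd5, chr9:73614040-73614289, minus strand: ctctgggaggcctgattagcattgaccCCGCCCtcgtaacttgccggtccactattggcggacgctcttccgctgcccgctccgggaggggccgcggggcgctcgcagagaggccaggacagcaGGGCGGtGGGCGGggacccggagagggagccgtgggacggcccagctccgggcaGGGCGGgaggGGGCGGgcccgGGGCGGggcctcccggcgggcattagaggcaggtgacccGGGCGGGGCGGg
Fzd7, chr9:68425288-68425537, plus strand: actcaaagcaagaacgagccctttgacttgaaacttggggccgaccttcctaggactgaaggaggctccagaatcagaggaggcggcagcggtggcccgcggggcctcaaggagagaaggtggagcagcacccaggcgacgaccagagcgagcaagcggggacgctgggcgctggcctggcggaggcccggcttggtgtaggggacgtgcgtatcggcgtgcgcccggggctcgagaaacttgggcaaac
Rspo1, chr5:142536040-142536289, plus strand: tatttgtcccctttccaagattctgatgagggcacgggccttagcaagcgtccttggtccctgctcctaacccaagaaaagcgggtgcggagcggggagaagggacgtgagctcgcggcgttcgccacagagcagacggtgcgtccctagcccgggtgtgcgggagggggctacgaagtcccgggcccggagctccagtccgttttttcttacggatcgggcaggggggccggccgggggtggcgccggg
The Axin2 window held 2 TCF/LEF matches and was 47.6% G and C, and the Fzd5 window held 8 GC boxes and was 76.4% G and C. The Fzd7 and Rspo1 windows held neither motif and were 65.6% and 66.4% G and C. Of the 44 members, 29 had an entry in the promoter table, and their windows had a median G and C content of 65.6% against 52.0% over all 27457 promoters. A GC box was found in 15 of the 29 (51.7%; 32.4% of all promoters) and a TCF/LEF match in 2 of the 29, Axin2 and Sfrp5 (6.90%; 14.7% of all promoters). These are matches of letters, given as a description.

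The libraries held 29675962 to 36402094 reads each. Reads of the 13 mitochondrial protein genes made up a median of 4.37% of reads in Control (3.75% to 4.69%), 37.4% in Model (23.5% to 43.5%) and 59.4% in LIPUS (43.0% to 83.3%). By the median over all genes tested, FPKM as deposited was lower in Model and LIPUS, where that share was higher. The median log2 change on the deposited scale was -0.90 for Model against Control and -1.48 for LIPUS against Control. It was -0.15 and -0.16 after each library was divided by its median-of-ratios factor. Single libraries did not all follow this: within Model, Model_7 had both the highest share, 43.5%, and the highest factor, 1.12. Levels below are therefore FPKM divided by that factor ("scaled FPKM", which is per kilobase of gene), and changes are on the log2(scaled FPKM + 0.1) scale, which understates the change of low genes. Among genes with 1 to 20 reads, the share with an even number of reads was 43.1% to 44.8% in Control, 66.9% to 76.8% in Model and 70.9% to 81.6% in LIPUS. The part of both differences in the results was not tested. A value of 0 allows up to 3 reads, which for a gene of 2 kb is 0.0233 to 0.0293 scaled FPKM in Control, 0.0410 to 0.0516 in Model and 0.0412 to 0.148 in LIPUS, by counting error alone. Prostate secretory genes were present in every library, but their kind differed: the summed scaled FPKM of 4 ventral lobe secretion genes had a median of 132053 in Control, 2627 in Model and 52865 in LIPUS, and that of 2 dorsolateral lobe genes 6191, 143490 and 31722. Within Model, the library Model_7 stood apart, with a ventral sum of 61940 and a dorsolateral sum of 274.5, where the other 4 had 259 to 20638 and 101149 to 186411. Between Model and Control the kind of secretory gene thus went with the group, apart from the dorsolateral genes in Model_7. The part of this difference in the comparisons of members was not tested. In tissue libraries, fewer cells of a type and less RNA per cell cannot be told apart.

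Of the 44 members, 27 passed the filter for testing, a deposited FPKM above 0.5 in at least 5 of the 15 samples. In Model against Control, limma called 11 of the 27 lower at an adjusted p under 0.05 (20.2% of all 12490 genes tested) and 0 higher (15.3% of all genes). No member was higher at an unadjusted p under 0.05, and limma-voom on recovered reads gave 0 higher as well. In LIPUS against Control, 10 were lower (14.3% of all genes) and 1 was higher (11.6%). In LIPUS against Model, 1 was higher (2.72%) and 0 were lower (1.49%), with 6 higher and 3 lower at an unadjusted p under 0.05 and 0 in either direction with limma-voom. The median change of the 27 was -1.37 for Model against Control, 0.00 for LIPUS against Model and -1.40 for LIPUS against Control, beside -0.15, -0.02 and -0.16 over all genes tested. Both comparisons with Control share the Control samples. On the deposited scale 16 members were lower and 0 higher in Model against Control (43.1% and 2.95% of all genes), 24 were lower and 1 higher in LIPUS against Control (74.4% and 0.953%), and 1 was lower and 1 higher in LIPUS against Model (13.3% and 1.31%). Every Model library lay below every Control library for 12 of the 27 (18.3% of all genes) and above for 0 (14.1%). Every LIPUS library lay below every Control library for 9 (15.3%) and above for 1 (11.2%), and LIPUS and Model did not separate in either direction for any member (1.63% higher and 1.29% lower among all genes). The members entered these counts by the filter. Of them, 3 passed it through Control alone, and further members, named below, passed it only with Control libraries counted. The counts are therefore a description.

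**Figure D1:**
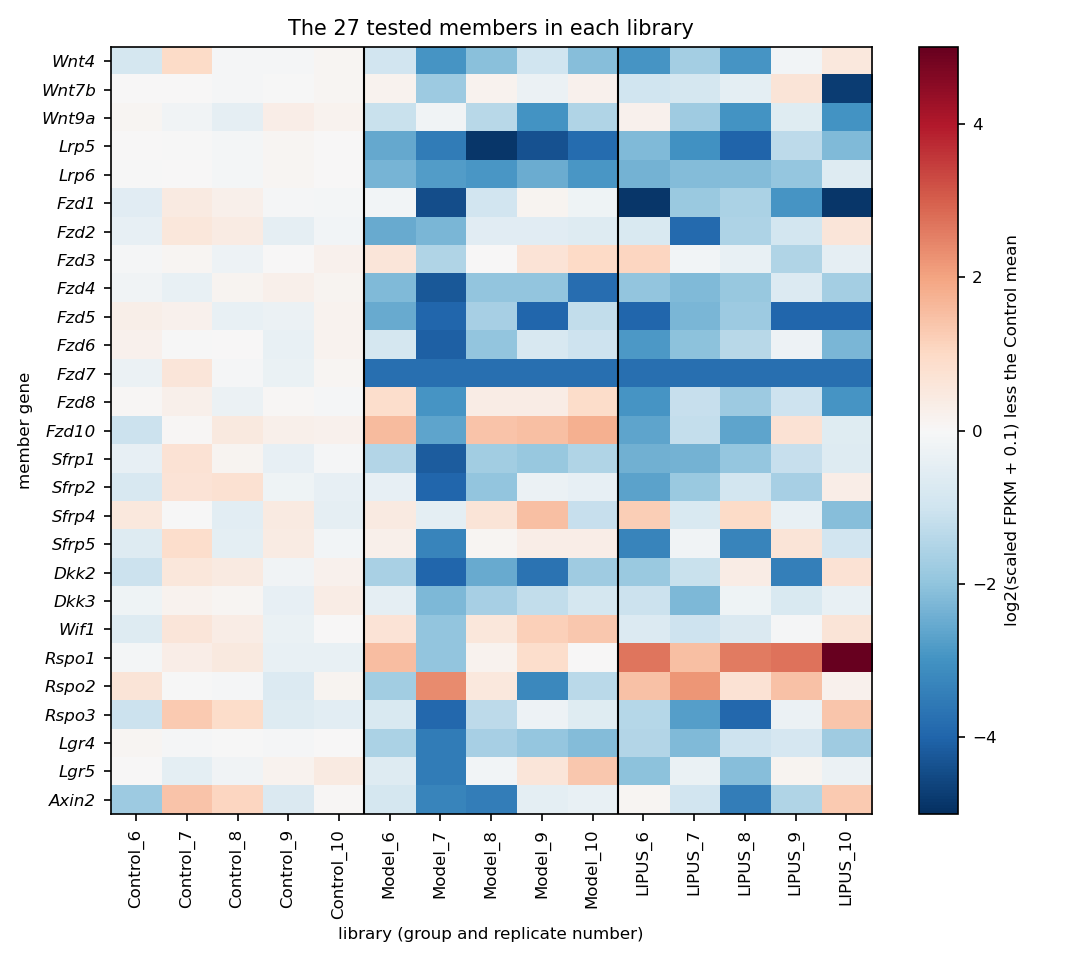
Levels of the 27 tested members (rows, grouped by role from ligands to Axin2) in each of the 15 libraries (columns), as log2(scaled FPKM + 0.1) less the mean of the 5 Control libraries; blue is lower and red higher. Lrp5, Lrp6 and Fzd7 are blue in every Model and LIPUS library, Rspo1 is red in every LIPUS library, and the column of Model_7 is the lowest of the 5 Model libraries for 18 of the 27 members.

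**Figure D2:**
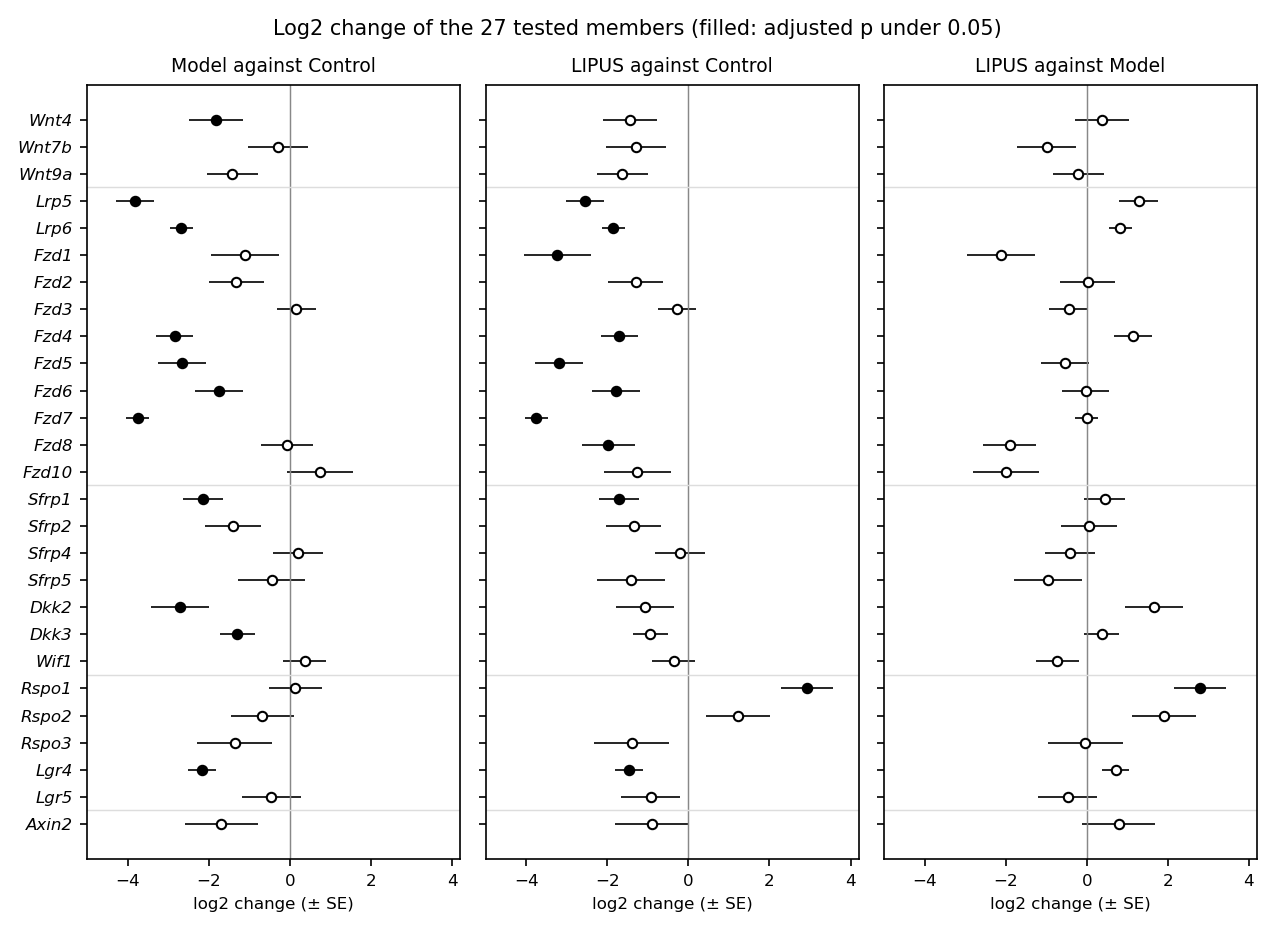
Log2 change of the 27 tested members (points; bars are 1 SE of the fit) in each comparison, with filled points at an adjusted p under 0.05. The left and middle panels hold 11 and 10 filled points below 0, and the right panel holds a single filled point, Rspo1, at 2.79.

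The co-receptors Lrp5 and Lrp6, which every canonical Wnt signal requires in one form or the other, were among the largest changes. Lrp5 (gene number 293649) measured 4.63, 4.52, 4.33, 4.93 and 4.74 scaled FPKM in Control_6 to Control_10, 0.704, 0.317, 0.0609, 0.131 and 0.228 in Model_6 to Model_10, and 0.923, 0.480, 0.193, 1.80 and 0.933 in LIPUS_6 to LIPUS_10. The 5 Control libraries lay within a narrow band, and every Model and LIPUS library lay far below it. The log2 change was -3.83 (SE 0.47, limma adjusted p = 3.44e-05) in Model and -2.55 (SE 0.47, adjusted p = 0.00125) in LIPUS against Control. Lrp6 (312781) measured 5.40, 5.52, 5.12, 5.84 and 5.65 in Control, 1.01, 0.704, 0.654, 0.917 and 0.642 in Model, and 0.997, 1.13, 1.16, 1.36 and 3.49 in LIPUS. Here too neither group overlapped Control, and LIPUS_10 was the highest of the 10 other libraries. Its log2 change was -2.68 (SE 0.29, adjusted p = 1.31e-05) in Model and -1.85 (SE 0.29, adjusted p = 0.000370) in LIPUS. LIPUS lay above Model by 1.28 for Lrp5 (95% interval 0.27 to 2.29, adjusted p = 0.114) and 0.83 for Lrp6 (0.21 to 1.45, adjusted p = 0.0965), which did not pass the test.

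Frizzled proteins are the seven-pass receptors that bind Wnt at an extracellular cysteine-rich domain. Of the 10 Frizzled genes, 9 passed the filter. In Model against Control 4 of these fell (Fzd4, Fzd5, Fzd6 and Fzd7), beside 20.2% of all genes tested. In LIPUS against Control 6 fell (Fzd1, Fzd4, Fzd5, Fzd6, Fzd7 and Fzd8), beside 14.3% of all genes. Fzd7 (100360552) showed the plainest pattern: it had 158, 321, 217, 162 and 193 reads in the 5 Control libraries and 0 in all 10 others. In scaled FPKM the Control values were 1.0, 1.94, 1.20, 0.963 and 1.33. Against 3 reads per library, by counting error alone, the mean of Control was at least 39.7-fold higher than Model and at least 22.0-fold higher than LIPUS. These bounds take reads as separate counts. Most low counts in Model and LIPUS were even, so the bounds may be too high. Reads in every Control library and none in any Model or LIPUS library were also found for Wnt9b, and for 201 of the 22436 genes in the table (0.896%). Fzd7 entered the test through Control alone, as did Dkk3 and Wnt4. A lower level elsewhere was thus in part fixed by the filter for these 3. The same holds in part for members that passed only with Control libraries counted. In Model and LIPUS, the filter level was exceeded in 0 and 1 libraries for Fzd4, 1 and 0 for Fzd5, 0 and 3 for Dkk2, and 1 and 3 for Lrp5. It was exceeded in 1 and 1 for Wnt9a, 2 and 2 for Axin2 and Sfrp4, 3 and 1 for Fzd2, and 4 and 0 for Fzd8. The adjusted p of Fzd7 was 2.59e-06 in Model and 4.08e-06 in LIPUS.

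Fzd4, best known in vessels, where it also serves the ligand norrin, measured 2.03, 1.73, 2.51, 2.74 and 2.55 scaled FPKM in Control, 0.422, 0.0247, 0.507, 0.50 and 0.0707 in Model, and 0.502, 0.413, 0.541, 1.38 and 0.625 in LIPUS. Both groups lay below every Control library, with log2 changes of -2.84 (SE 0.46, adjusted p = 0.000268) and -1.70 (SE 0.46, adjusted p = 0.0136). The second of these was no longer called with a pseudocount of 0.01 (adjusted p = 0.0658). The summed level of 8 endothelial markers, all with reads in each group, ranged from 13 to 22.9 scaled FPKM in Control, 0.774 to 13.3 in Model and 3.0 to 5.33 in LIPUS. Of these 8, 3 fell in Model (20.2% of all genes tested) and 7 in LIPUS against Control (14.3%). Their part in the result was not tested. Fzd5, an epithelial receptor in several organs, measured 1.78, 1.69, 1.09, 1.16 and 1.66 in Control, 0.170, 0, 0.391, 0 and 0.566 in Model, and 0, 0.219, 0.336, 0 and 0 in LIPUS. No library of either group reached the lowest Control, and 5 of these 10 had no read. Its log2 change was -2.66 (SE 0.59, adjusted p = 0.00286) in Model and -3.19 (SE 0.59, adjusted p = 0.00120) in LIPUS.

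Fzd6, which acts mainly in planar polarity, measured 4.42, 3.77, 3.87, 2.92 and 4.32 scaled FPKM in Control, 2.01, 0.129, 0.903, 2.16 and 1.81 in Model, and 0.429, 0.834, 1.41, 3.14 and 0.698 in LIPUS. All Model libraries lay below Control, while LIPUS_9 reached into the Control range. The log2 changes were -1.76 (SE 0.58, adjusted p = 0.0293) and -1.78 (SE 0.58, adjusted p = 0.0356). The call in Model was lost when Control_6, Control_7, Control_8, Control_10 or Model_8 was left out (adjusted p up to 0.0600), and that in LIPUS when any 1 Control library, LIPUS_6, LIPUS_7 or LIPUS_10 was (up to 0.0831). Without a filter neither was called (adjusted p = 0.0511 and 0.0592), nor that in LIPUS with a pseudocount of 0.01 (0.0587). Fzd1 measured 1.88, 3.94, 3.45, 2.74 and 2.66 in Control, 2.60, 0.0373, 1.42, 3.10 and 2.43 in Model, and 0, 0.711, 0.895, 0.280 and 0 in LIPUS. The Model libraries lay within the Control range apart from Model_8, which was below it, and Model_7, which was near 0, whereas all LIPUS libraries were below every Control. The log2 change in LIPUS against Control was -3.23 (SE 0.83, adjusted p = 0.0106; 0.118 with limma-voom).

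**Figure D3:**
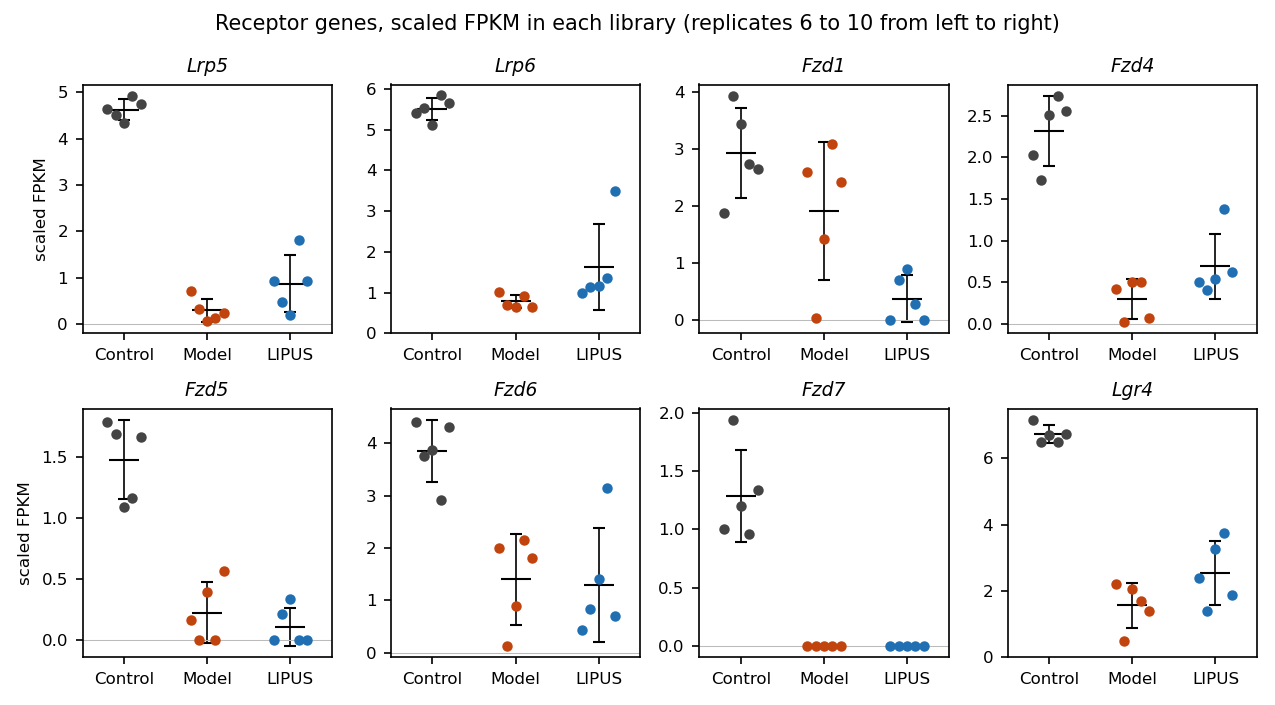
Scaled FPKM of 8 receptor genes in each library (points; replicates 6 to 10 from left to right within Control in grey, Model in orange and LIPUS in blue), with the group mean (horizontal line) and ± 1 SD (bars). Lrp5, Lrp6, Fzd4, Fzd5, Fzd7 and Lgr4 do not overlap between Control and either other group, whereas Fzd1 overlaps between Control and Model.

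Fzd8 and Fzd10 separated Model from LIPUS in all libraries but one, a pattern chosen for description after the values were seen. Fzd8 measured 0.689, 0.810, 0.533, 0.697 and 0.628 scaled FPKM in Control, 1.30, 0, 0.901, 0.904 and 1.33 in Model, and 0, 0.245, 0.115, 0.277 and 0 in LIPUS. Fzd10 measured 0.196, 0.549, 0.769, 0.640 and 0.616 in Control, 1.74, 0, 1.56, 1.65 and 2.02 in Model, and 0, 0.172, 0, 0.917 and 0.309 in LIPUS. In both genes 4 Model libraries exceeded every Control and LIPUS library, and Model_7 had no read. With all libraries, Fzd8 in LIPUS against Control was the one call among these comparisons (log2 change -1.98, SE 0.65, adjusted p = 0.0356); it was lost when any 1 Control library, LIPUS_6, LIPUS_8 or LIPUS_10 was left out (adjusted p up to 0.0793) and under 5 of 13 other settings, among them the replicate number as a block (0.0673) and limma-voom (0.221). Without Model_7, LIPUS was lower than Model for Fzd8 (log2 change -2.61, adjusted p = 0.000766), Fzd10 (-2.83, adjusted p = 0.00314) and Fzd1 (-2.93, adjusted p = 0.00346). So were 17.1% of all genes tested. With all libraries the adjusted p of Fzd8, Fzd10 and Fzd1 was 0.0920, 0.145 and 0.132. Model_7 held the lowest Model value of each, so leaving it out narrowed their spread, and these values are a description. Fzd2 and Fzd3 were not called in any comparison. Fzd2 averaged 1.45 ± 0.507 for Control, 0.600 ± 0.386 for Model and 0.808 ± 0.820 for LIPUS (SD, n = 5 each), and its Model libraries all lay below Control (adjusted p = 0.140). Fzd3 averaged 0.918 ± 0.120, 1.21 ± 0.639 and 0.882 ± 0.663.

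Summed over all 12 Frizzled and Lrp genes, the receptors had a median of 25.5 scaled FPKM per library in Control (23.9 to 27.6), 11.5 in Model (1.67 to 12.4) and 5.74 in LIPUS (5.02 to 10.1). Lrp6 and Lrp5 held the largest shares of the Control sum, 21.4% and 18.0%, and Fzd1 and Fzd6 those of the Model sum, with 21% and 15.3%. By the test, 6 of 11 receptors fell in Model (20.2% of all genes tested) and 8 of 11 in LIPUS against Control (14.3%). Among the receptors that fell, Fzd4, Fzd5, Fzd7, Fzd8 and Lrp5 passed the filter only with Control libraries counted, so these counts are a description.

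Few Wnt ligands were expressed at a level that could be tested. Of 17, 3 passed the filter (Wnt4, Wnt7b and Wnt9a), and 1 of these, Wnt4, fell in Model against Control. Wnt7b, an epithelial ligand in many organs, was the most abundant, with 39.8% of the ligand sum in Control, 65.3% in Model and 46.1% in LIPUS. Its values, given although it was not called, were 2.55, 2.56, 2.42, 2.5 and 2.74 scaled FPKM in Control, 2.93, 0.654, 2.93, 2.07 and 2.99 in Model, and 1.22, 1.35, 1.81, 4.02 and 0 in LIPUS. Control varied little, while 3 Model libraries lay just above it, Model_9 below it and Model_7 well below it. The log2 change was -0.30 (95% interval -1.87 to 1.27, adjusted p = 0.784) in Model and -1.29 (-2.86 to 0.28, adjusted p = 0.218) in LIPUS against Control. Wnt4, a ligand of mesenchyme and of hormone-responsive epithelium, ranged from 0.318 to 1.39 in Control, 0 to 0.296 in Model and 0 to 1.03 in LIPUS. Its log2 change in Model was -1.83 (SE 0.67, adjusted p = 0.0442), a call that was lost when any of 8 single libraries was left out (Control_7 to Control_10, Model_7, Model_8, Model_10 or LIPUS_7; adjusted p up to 0.105) and under 6 of 12 other settings (up to 0.117). Wnt9a averaged 0.706 ± 0.167 for Control, 0.252 ± 0.221 for Model and 0.273 ± 0.347 for LIPUS (SD, n = 5 each) and was not called (adjusted p = 0.0880 and 0.0683 against Control). Without Model_7, its highest Model library, it was lower in both Model and LIPUS than in Control (log2 changes -1.73 and -1.62, adjusted p = 0.0341 and 0.0457). So were 25.9% and 19.7% of all genes.

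The other 14 ligands stayed below the filter. Wnt2, a mesenchymal ligand, reached 4.51 deposited FPKM in Control_8 and was above 0.5 in 3 libraries, with 2279 reads over 13 libraries. Wnt5a, the main ligand of the non-canonical branch, reached 1.49 in Control_8 and was above 0.5 in 4 libraries. The highest deposited FPKM was 0.874 for Wnt5b, 0.763 for Wnt6, 0.746 for Wnt2b, 0.336 for Wnt10a, 0.183 for Wnt16, 0.135 for Wnt3a, 0.133 for Wnt11 and 0.113 for Wnt10b. It was below 0.1 for Wnt9b, Wnt8b, Wnt1 and Wnt3. Tested without a filter, 13 of the 44 members were lower and 0 higher in Model against Control (13% and 8.27% of all 22436 genes), 12 lower and 1 higher in LIPUS against Control (9.81% and 6.24%), and 0 in either direction in LIPUS against Model (0.459% lower and 0.749% higher). Of the genes below the filter, that test called 4 lower in both other groups than in Control, named after their values were seen. Wnt5a averaged 0.639 ± 0.245 scaled FPKM for Control, 0.0891 ± 0.0605 for Model and 0.135 ± 0.258 for LIPUS (SD, n = 5 each). Wnt9b, Wnt10b and Wnt16 had 50, 29 and 25 reads in all, all of them in Control, where they averaged 0.0232, 0.0439 and 0.0501. In the other groups, 3 reads of these genes would give 0.0111 to 0.0401, 0.0367 to 0.133 and 0.0494 to 0.179, so that for these 3 a difference from Control was not detectable at this depth in every library.

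Secreted inhibitors were the most abundant members, led by Wif1 and Sfrp2. In Control, Wif1 averaged 13.5 ± 4.65 scaled FPKM (SD, n = 5) and Sfrp2 11.5 ± 5.49, a difference within their spread, and no other member exceeded the 6.71 ± 0.271 of Lgr4. By the test, 3 of 7 inhibitors fell in Model (Sfrp1, Dkk2 and Dkk3, beside 20.2% of all genes tested). In LIPUS 1 of 7 fell (Sfrp1), a share the same as the 14.3% of all genes. Dkk2 and Dkk3 passed the filter only with Control libraries counted. Sfrp1 (84402), which binds Wnt ligands through a Frizzled-like domain and is made by stroma, measured 3.86, 8.59, 5.73, 3.89 and 4.97 in Control, 1.82, 0.197, 1.49, 1.31 and 1.75 in Model, and 0.884, 0.931, 1.26, 2.25 and 3.28 in LIPUS. Both groups lay below every Control library, and Model_7 was the lowest of all. The log2 change was -2.15 (SE 0.50, adjusted p = 0.00367) in Model and -1.71 (SE 0.50, adjusted p = 0.0200) in LIPUS, the latter 0.0545 when Control_7 was left out. Of 12 fibroblast and matrix markers, 8 fell in Model (20.2% of all genes tested) and 7 in LIPUS against Control (14.3%). Their median changes were -2.53 and -1.98. Their levels summed to 521 to 892 scaled FPKM per Control library, 111 to 255 per Model library and 130 to 852 per LIPUS library. The part of these markers in the result was not tested. Dkk2 (295445), which binds Lrp5 and Lrp6, measured 0.655, 2.21, 2.05, 1.31 and 1.74 in Control, 0.415, 0, 0.178, 0.0215 and 0.358 in Model, and 0.338, 0.622, 1.94, 0.0460 and 2.5 in LIPUS. Model lay below every Control library, and LIPUS spanned both ranges. Its log2 change was -2.71 (SE 0.72, adjusted p = 0.00858) in Model against Control and 1.65 (95% interval 0.12 to 3.18, adjusted p = 0.163) in LIPUS against Model. Dkk3, a divergent member of the Dkk family, averaged 0.519 ± 0.129 in Control, 0.170 ± 0.122 in Model and 0.254 ± 0.157 in LIPUS. Its call in Model (log2 change -1.30, SE 0.43, adjusted p = 0.0286) was lost without Control_7, Control_8, Control_10, Model_7, Model_8 or Model_9 (adjusted p up to 0.0674), with quantile normalization (0.104) and with a pseudocount of 0.01 (0.0649).

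Wif1 and Sfrp2 are given in full for their abundance, although neither was called. Wif1 (114557) measured 8.08, 19.4, 16.8, 10.1 and 13 scaled FPKM in Control, 20.4, 3.2, 18.9, 29.8 and 32.5 in Model, and 8.00, 6.22, 7.81, 12.3 and 20.3 in LIPUS. It was highest in 3 Model libraries and lowest in Model_7. The log2 change of Model against Control was 0.36 (95% interval -0.76 to 1.48, adjusted p = 0.631), and -0.42 on the deposited scale. Without Model_7, which held the lowest value, it was 0.94 (adjusted p = 0.0302, with 21.2% of all genes called higher). LIPUS was then lower than Model (log2 change -1.31, adjusted p = 0.00895, with 17.1% of all genes called lower). With all libraries that change was -0.72 (adjusted p = 0.395). Fzd10 was the other member called higher in Model without that library (1.58, adjusted p = 0.0392). Sfrp2 (310552) measured 5.99, 17.1, 17.7, 8.94 and 7.85 in Control, 7.95, 0.581, 2.59, 8.53 and 7.94 in Model, and 1.58, 2.86, 5.55, 3.23 and 13.3 in LIPUS. All 3 groups overlapped (log2 change -1.41 in Model, adjusted p = 0.122, and -1.35 in LIPUS against Control, adjusted p = 0.164). Wif1 made up 39.3% of the inhibitor sum in Control, 69.8% in Model and 52.9% in LIPUS, and Sfrp2 33.6%, 18.4% and 25.6%. Sfrp4 averaged 0.360, 0.512 and 0.418 in the 3 groups and Sfrp5 0.953, 0.851 and 0.519, with no call. Frzb and Dkk4 did not pass the filter, with a highest deposited FPKM of 1.09 and 0.681, nor did the receptor Fzd9 with 0.501.

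**Figure D4:**
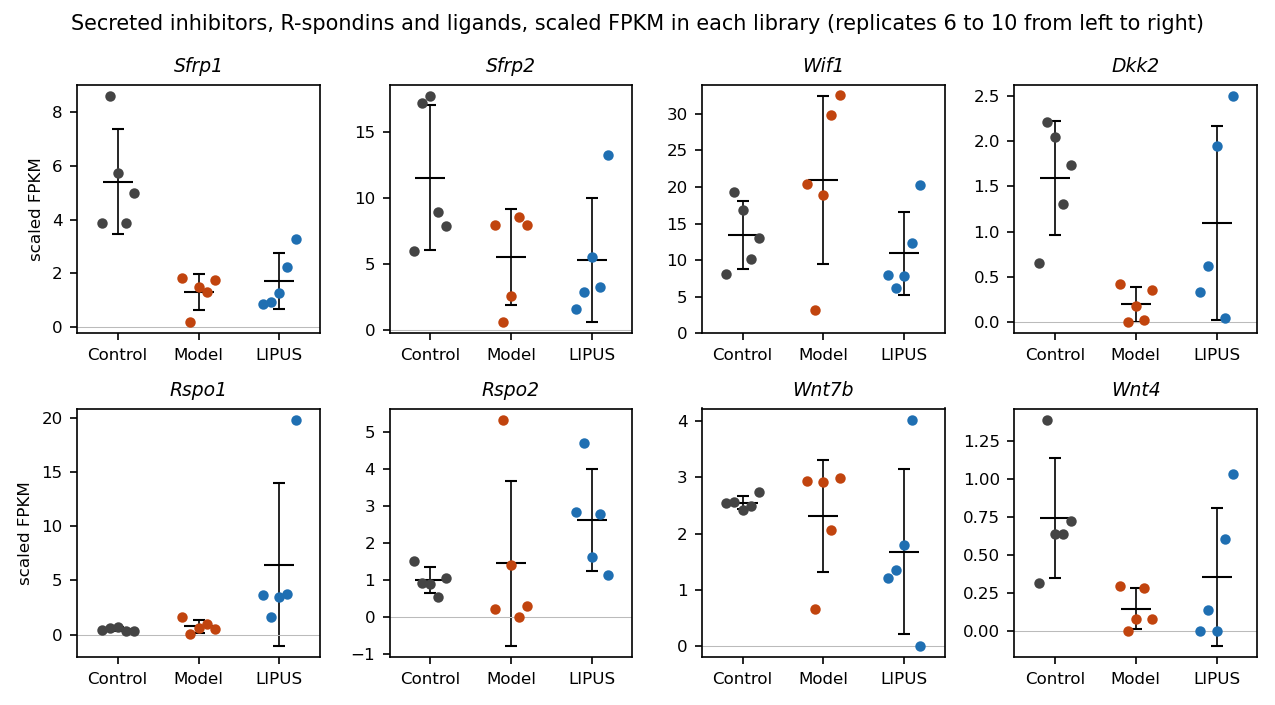
Scaled FPKM of 4 secreted inhibitors (top row), 2 R-spondins and 2 Wnt ligands (bottom row) in each library (points; replicates 6 to 10 from left to right within each group), with the group mean (horizontal line) and ± 1 SD (bars). Rspo1 rises to 19.9 in LIPUS_10 and lies between 1.59 and 3.75 in the other 4 LIPUS libraries; Wif1 is at 3.2 in Model_7 and at 18.9 or more in the other 4 Model libraries.

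Of the R-spondin and Lgr genes, the receptor Lgr4 fell and the ligand Rspo1 rose. Lgr4 (286994), the broadly expressed R-spondin receptor, measured 7.16, 6.50, 6.70, 6.49 and 6.71 scaled FPKM in Control, 2.20, 0.497, 2.06, 1.70 and 1.41 in Model, and 2.38, 1.39, 3.26, 3.74 and 1.88 in LIPUS. Neither group reached Control, whose libraries lay close together. The log2 change was -2.17 (SE 0.34, adjusted p = 0.000236) in Model and -1.46 (SE 0.34, adjusted p = 0.00626) in LIPUS. Rspo1 (313589), which potentiates Wnt signals, measured 0.451, 0.648, 0.728, 0.353 and 0.358 in Control, 1.63, 0.0502, 0.568, 0.990 and 0.494 in Model, and 3.68, 1.59, 3.47, 3.75 and 19.9 in LIPUS. All LIPUS libraries exceeded all Control libraries, and the lowest, LIPUS_7, was just under the highest Model library. The log2 change was 2.92 (SE 0.64, adjusted p = 0.00407) in LIPUS against Control, higher in 5 of 5 libraries and on the deposited scale 1.60 (adjusted p = 0.0112). Against Model it was 2.79 (SE 0.64, adjusted p = 0.0305), and Rspo1 was the one member called there. That second call was lost without Model_8, Model_9, Model_10, LIPUS_6, LIPUS_8 or LIPUS_10 (adjusted p up to 0.0755), with these 2 groups fitted alone and with limma-voom on recovered reads (up to 0.154 over all settings), while the call against Control stood when each library was left out. In the same libraries the summed level of the fibroblast and matrix markers given above, all with reads in each group, was highest among LIPUS libraries in LIPUS_10. The sum of 8 macrophage markers, all with reads in each group, was 52.4 to 64.7, 45.4 to 104 and 107 to 357 in the 3 groups. It was again highest in LIPUS_10. Of the 8, 5 were called higher in LIPUS than in Control (11.6% of all genes tested) and 6 than in Model (2.72%). The sum of 6 T cell markers was 3.28 to 5.36, 2.75 to 13 and 11.1 to 25.4. LIPUS_10 was also the highest LIPUS library for the T cell, smooth muscle, luminal, adipocyte, Schwann cell, skeletal muscle and urothelial sums. It was not for the basal, endothelial, seminal vesicle and lobe secretion sums. Its scaling factor was 0.299, against 0.620 to 1.09 in the other LIPUS libraries. As deposited, Rspo1 was 5.94 FPKM in LIPUS_10 and 1.73 to 2.42 in the others. The part of these sums and of the factor in the result was not tested.

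Rspo2 (500863) measured 1.53, 0.930, 0.894, 0.559 and 1.05 in Control, 0.217, 5.32, 1.40, 0.0112 and 0.311 in Model, and 2.83, 4.69, 1.63, 2.77 and 1.13 in LIPUS; it is given because Model_7 was here the highest Model library. It was not called with all libraries (LIPUS against Model 1.90, 95% interval 0.23 to 3.57, adjusted p = 0.145). Without Model_7 it was higher in LIPUS than in Model by a log2 change of 2.66 (adjusted p = 0.00469), as were 15% of all genes. Rspo3 ranged from 0.621 to 3.67 in Control, 0 to 1.18 in Model and 0 to 3.87 in LIPUS, and Lgr5, a marker of epithelial stem cells in several organs, from 0.706 to 1.43, 0 to 2.74 and 0.158 to 1.13; neither was called. Lgr4 made up 60.9% of the summed R-spondin and Lgr level in Control, and Rspo1 48.5% in LIPUS, or 31.9% without LIPUS_10.

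Axin2 (29134), whose upstream window held both TCF/LEF matches shown above, measured 0.208, 2.84, 2.18, 0.553 and 1.03 scaled FPKM in Control, 0.492, 0.0103, 0, 0.673 and 0.746 in Model, and 1.06, 0.458, 0, 0.284 and 2.56 in LIPUS. The groups overlapped, and Control alone spanned a wide range, highest in Control_7 and Control_8. The log2 change was -1.70 (95% interval -3.62 to 0.23, adjusted p = 0.159) in Model and -0.91 (-2.83 to 1.02, adjusted p = 0.498) in LIPUS against Control. On the deposited scale both were called (-2.39, adjusted p = 0.0209, and -2.08, adjusted p = 0.0253), beside median changes of -0.90 and -1.48 over all genes tested. Control_7 and Control_8 were both above the other 3 Control libraries in 9 of the 27 members (18.3% of all genes tested). The same 2 libraries had the highest sums of 10 smooth muscle markers, 1374 and 1783 scaled FPKM against 737 to 951 in the other 3 Control libraries. They also had the highest Control sums of fibroblast and matrix, basal, luminal, T cell and seminal vesicle markers. They did not for the endothelial, macrophage, lobe secretion, adipocyte, Schwann cell, skeletal muscle and urothelial sums. The part of these differences was not tested. Model_7 was below the other 4 Model libraries in 18 of the 27 (39.8% of all genes) and above them in 2 (34.0%). Without it, 2 members were higher and 10 lower in Model against Control (21.2% and 25.9% of all genes), 2 higher and 4 lower in LIPUS against Model (15% and 17.1%), and 1 higher and 11 lower in LIPUS against Control (14.6% and 19.7%).

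Other genes of the pathway were counted from 4 lists drawn up by role. They entered by the same filter as the members, which a gene high in Control alone can pass. A lower level elsewhere is in part fixed by the filter for such genes, so the counts and medians of these lists are a description too. Of 18 tested genes of Wnt secretion, co-receptors and receptor turnover, 10 fell in Model (20.2% of all genes tested) and 11 in LIPUS against Control (14.3%), with a median change of -1.77 and -2.08 beside -0.15 and -0.16 over all genes. None rose in either comparison, also at an unadjusted p under 0.05 and with limma-voom, and 0 differed between LIPUS and Model by any of these. Among them Gpc3, a glypican that binds Wnt and Hedgehog ligands at the cell surface, averaged 6.50 ± 4.64 for Control, 0.439 ± 0.251 for Model and 0.584 ± 0.493 for LIPUS, in scaled FPKM (SD, n = 5 each; log2 changes -3.53 and -3.49, adjusted p = 0.000469 and 0.000829). Gpc6, another glypican, averaged 1.10, 0.111 and 0.187. Reck and Adgra2, which form the receptor complex for Wnt7 ligands on brain endothelium, averaged 2.79 ± 0.619 and 3.23 ± 0.984 in Control, 0.317 ± 0.335 and 0.546 ± 0.479 in Model, and 0.551 ± 0.621 and 0.562 ± 0.414 in LIPUS. Their changes in Model were -3.21 (adjusted p = 0.00203) and -2.68 (adjusted p = 0.00119); both fell in LIPUS too, Reck not with a pseudocount of 0.01 (adjusted p = 0.0608).

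Of 28 tested intracellular genes of the pathway, 10 fell and 4 rose in Model against Control (20.2% and 15.3% of all genes tested), and 5 fell and 0 rose in LIPUS against Control (14.3% and 11.6%; 0 higher also at an unadjusted p under 0.05 and with limma-voom), with median changes of -0.23 and -0.27. The shares that rose in Model and fell in LIPUS were near those of all genes, as were the medians. The co-activator Bcl9l averaged 2.31 ± 0.274 for Control, 0.288 ± 0.245 for Model and 0.731 ± 0.177 for LIPUS, in scaled FPKM (SD, n = 5 each; log2 change in Model -2.86, adjusted p = 5.00e-05). Apc and Gsk3b, both of the complex that destroys beta-catenin, averaged 3.93 and 7.94 in Control, 1.64 and 4.02 in Model, and 1.49 and 4.11 in LIPUS, and fell in both groups against Control, apart from Gsk3b in LIPUS per nuclear FPKM (adjusted p = 0.0759). Amer1, which tethers Apc at the membrane, averaged 1.75 ± 0.153, 0.271 ± 0.408 and 1.12 ± 0.756; it fell in Model (-2.94, adjusted p = 0.00103) and was higher in LIPUS than in Model (2.17, adjusted p = 0.0453). The latter call was lost when any 1 library other than Model_7, LIPUS_7 or LIPUS_9 was left out (adjusted p up to 0.119) and under 9 of 13 other settings (up to 0.203). The 4 that rose in Model, named because they were few, were Ctnnb1, which encodes beta-catenin (0.91, adjusted p = 0.0233), Tcf7l2 (1.87, adjusted p = 0.0403), Nlk (1.18, adjusted p = 0.0145) and Csnk1a1 (0.60, adjusted p = 0.0168). On the deposited scale none of these 4 was called, and Csnk1a1 had a change of -0.18. With quantile normalization Ctnnb1 and Csnk1a1 were not called (adjusted p = 0.245 and 0.572). Nlk and Csnk1a1 stayed called with each library left out; Ctnnb1 was lost without Control_6, Model_6, Model_8, Model_9 or Model_10 (adjusted p up to 0.0629), and Tcf7l2 without any 1 Control library or any 1 of those 4 Model libraries (up to 0.106). Tcf7l2 was also lost without a filter (0.0708), with only the 2 groups compared (0.0582) and with the replicate number as a block (0.0586).

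Of 17 tested feedback and target genes, 4 fell and 1 rose in Model against Control (20.2% and 15.3% of all genes tested), and 4 fell and 0 rose in LIPUS against Control (14.3% and 11.6%; 1 higher at an unadjusted p under 0.05, 0 with limma-voom). The share that fell in Model was near that of all genes. Rnf43, a ubiquitin ligase that removes Frizzled receptors and which also stands in the receptor turnover list, averaged 0.765, 0.114 and 0.173 scaled FPKM in Control, Model and LIPUS. Tnfrsf19 averaged 2.53 ± 1.77 (SD, n = 5), 0.150 ± 0.206 and 0.0722 ± 0.162 (log2 changes -3.55 and -4.00, adjusted p = 0.000692 and 0.000479), and the receptor kinase Ephb3 1.23, 0.242 and 0.261, its call in Model lost with quantile normalization or a pseudocount of 0.01 (adjusted p up to 0.0934). The one that rose in Model was Sox9, named because it was alone (1.45, adjusted p = 0.0460; 0.69, adjusted p = 0.359, on the deposited scale). Its call was lost when any 1 Control library, any Model library but Model_7, LIPUS_6, LIPUS_7 or LIPUS_8 was left out (adjusted p up to 0.116) and under 4 of 13 other settings. Zcchc12 was the one called between LIPUS and Model: it averaged 0.628 ± 0.496 in Model and 11.6 ± 11.3 in LIPUS (4.06, adjusted p = 0.0332), with 3.78 ± 4.45 in Control. This call was lost without Model_8, Model_9, Model_10, LIPUS_6 or LIPUS_10 (adjusted p up to 0.0881) and under 6 of 13 other settings (up to 0.222). Of 12 tested planar polarity genes, 3 fell in Model against Control, a share near the 20.2% of all genes. They were Dact1, Rac1 and Scrib, with changes of -1.94, -1.41 and -0.83. Rac1 averaged 44.7 ± 44.5 scaled FPKM in Model and 90.1 ± 9.26 in Control (SD, n = 5 each), and these groups overlapped. The call of Scrib was lost without Control_6, Control_7, Control_9, Control_10, Model_8, Model_9 or Model_10 (adjusted p up to 0.0789). It was also lost under 2 other settings (up to 0.0969). In LIPUS against Control or against Model, 0 planar polarity genes were called. At an unadjusted p under 0.05, 2 were lower in LIPUS than in Control and 2 higher than in Model, and limma-voom called 0.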

How the data were processed

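Per the labels' protocols, TRIzol was used to extract total RNA and a VAHTS Universal V5 kit to build the libraries. The strand is not stated, so reads of overlapping or antisense genes could not be told apart. The submitters' processing notes name fastp, HISAT2, SAMtools, HTSeq, R 3.2.0, DESeq2 and build rn6, with no role or order. The authors deposited 1 table of FPKM for 22436 genes in 15 samples. From it, each library was divided by its median-of-ratios factor over 10313 genes above 0 in every library, and log2(scaled FPKM + 0.1) of 12490 genes above 0.5 deposited FPKM in at least 5 samples was fitted with limma 3.58.1 (R 4.3.3): all 15 samples in 1 fit, trended empirical Bayes, Benjamini-Hochberg over all genes tested, called at an adjusted p under 0.05. Every adjusted p in the text is from this limma fit unless another is named, and 95% intervals are the fit's own. The fit was also run on simulated data with normal noise of equal spread in all groups. In these libraries the spread differed between groups for genes such as Lgr4, so that run is not used as support.

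FPKM steps gave whole reads within 0.001 for all 22436 genes, and these recovered reads served for depth and for limma-voom. No library was a copy of another (lowest chi-square per degree of freedom in 30 pairs of a group 75.1). Values of every sample are given for called members with a mean of at least 1 scaled FPKM in some group, and up to 4 called genes of each other list are named by smallest p; other genes shown are said to be chosen after their values were seen. The members and lists were chosen with earlier results of these data known. Alternatives covered scaling, pseudocount, filter, groups in the fit, sample weights, a replicate block, limma-voom and leaving out libraries. The genes of 14 marker lists were in the same fit, and are given as sums per library and, beside a result they move with, as counts of calls. Promoters came from RefSeq, build GRCr8, and of no member is a protein sequence used here.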

Additional observations from a re-analysis of the deposited data

Results flagged for a closer look

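In 9 of the 81 combinations of a tested member and a group, 1 of the 5 libraries lay far from the other 4 by Dixon's criterion, which chance meets in about 1 of 20. Model_7 was the library in 7 of them, each time the lowest. Its scaled FPKM was 0.0373 for Fzd1 (1.42 to 3.10 in the other 4 Model libraries), 0 for Fzd8 (0.901 to 1.33), 0 for Fzd10 (1.56 to 2.02), 0.197 for Sfrp1 (1.31 to 1.82), 0 for Sfrp5 (0.934 to 1.14), 3.2 for Wif1 (18.9 to 32.5) and 0.654 for Wnt7b (2.07 to 2.99). In that library the ventral lobe secretion genes were the highest and the dorsolateral ones the lowest of the 5 Model libraries. The other pair were Fzd10 in Control_6, at 0.196 (0.549 to 0.769 in the other 4 Control libraries), and Lrp6 in LIPUS_10, at 3.49 (0.997 to 1.36).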

How the results depend on the processing

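No called change of a member reversed under any setting. Of the other genes named, 2 reversed on the deposited scale with a call on either scale. They were Csnk1a1 in Model against Control (-0.18, adjusted p = 0.706, against 0.60) and Nlk in LIPUS against Control (-1.17, adjusted p = 0.0234, against 0.12, which was not called). Others changed sign without a call on either scale, such as Tcf7l2 in LIPUS against Control (-1.26 against 0.16). The cause was not tested. Dkk2, Fzd4, Fzd5, Fzd7, Lgr4, Lrp5, Lrp6 and Sfrp1 in Model, and Fzd5, Fzd7, Lgr4, Lrp5, Lrp6 and Rspo1 in LIPUS against Control, stayed called under all 13 other settings and with each of the 15 libraries left out. Where counts of members moved by over 1.5 times, the cause was not tested. Higher in Model against Control were 0 members in the fit of the report and 2 with array weights or without Model_7 and LIPUS_10. Higher in LIPUS against Model was 1, against 0 without a filter, with only the 2 groups compared or with limma-voom, and 2 with array weights or without Model_7 and LIPUS_10. Lower in LIPUS against Model were 0, against 1 as deposited or with a pseudocount of 1, and 4 with array weights or without those 2 libraries. In LIPUS against Control, 2 were higher with only the 2 groups compared and 24 lower as deposited. Of the other lists, the genes called in any comparison numbered 14 for the intracellular list (25 as deposited), 7 for the feedback list (14 as deposited, 11 without Model_7 and LIPUS_10) and 3 for the planar polarity list (10 as deposited, 5 without a filter, 6 with array weights, 5 without those libraries).

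With 1 library left out at a time, members higher in Model against Control were 0 to 2 and lower 8 to 11, higher in LIPUS against Model 0 to 2 and lower 0 to 4, and higher in LIPUS against Control 1 to 1 and lower 7 to 11. The lists held 11 to 19 intracellular, 10 to 15 secretion and co-receptor, 4 to 11 feedback and 2 to 5 planar polarity genes called. The values 2, 2 and 4 for members, 11 for the feedback list and 5 for the planar polarity list came without Model_7, the 4 for the feedback list without Model_10, and the 0 higher in LIPUS against Model without Model_8, Model_9, Model_10, LIPUS_6, LIPUS_8 or LIPUS_10.

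With the replicate number as a replicate block, 10 members were lower in Model and 9 lower and 1 higher in LIPUS against Control, and 0 were called in LIPUS against Model, where all genes called fell from 340 higher and 186 lower to 104 and 24. The labels do not say that a number marks a shared animal or batch, same-numbered samples of different groups had deviations that correlated at -0.42 to 0.25, and 0 of 15 samples correlated best with their own number.

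Over all genes, LIPUS against Model gave 1 higher and 0 lower with only the 2 groups compared, 53 and 28 with limma-voom, 1286 and 1279 with array weights, 163 and 1657 as deposited, and 1875 and 2133 without Model_7. LIPUS against Control gave 1448 and 1780, against 1620 and 1088 per nuclear FPKM. Depth limits the low members most in LIPUS_10, where 3 reads are 0.0702 scaled FPKM for Wnt4, 0.0498 for Dkk3 and 0.0434 for Fzd8, beside LIPUS means of 0.354, 0.254 and 0.127.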

Other observations

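Sums of the marker lists of other cell types, beside those given with the results, are given here. Summed scaled FPKM per library (lowest, median and highest of 5) was 432, 470 and 548 for 9 luminal epithelial genes such as Krt8 and Epcam in Control, 459, 927 and 998 in Model, and 464, 639 and 655 in LIPUS. For 6 basal epithelial genes such as Krt5 it was 33.5, 38.6 and 44.3 in Control, 4.31, 18.1 and 46.5 in Model, and 14.2, 32.0 and 116 in LIPUS. For 10 smooth muscle genes the medians were 951, 526 and 471 in Control, Model and LIPUS. For 6 adipocyte genes, among them Adipoq, they were 66.4, 3.52 and 14.7, and for 6 Schwann cell and nerve genes 15.7, 4.56 and 10.2. For 7 skeletal muscle genes they were 212, 73.1 and 66.0, and for 4 urothelial genes 6.28, 15.9 and 7.70. For 6 seminal vesicle genes they were 300.5, 3617 and 1247, with Pate4 at 0 in every LIPUS library. All other markers in the table had reads in each group. Among the tested genes of these lists, those called in Model against Control were 3 higher and 1 lower of 9 luminal, 3 lower of 5 basal, 3 lower of 10 smooth muscle, 4 lower of 5 adipocyte and 1 lower of 4 Schwann cell and nerve genes, and in LIPUS against Control 2 higher and 1 lower luminal, 1 lower basal, 3 lower smooth muscle and 3 lower adipocyte genes. In LIPUS against Model, 2 basal and 1 smooth muscle genes were higher and 1 luminal gene was lower. Over all genes tested, 15.3% were called higher and 20.2% lower in Model against Control. The shares were 11.6% and 14.3% in LIPUS against Control, and 2.72% and 1.49% in LIPUS against Model. No skeletal muscle, urothelial or seminal vesicle gene was called in any comparison by limma or limma-voom (1 seminal vesicle gene was higher in LIPUS than in Control at an unadjusted p under 0.05). Of the 4 ventral lobe genes all were lower in Model than in Control, and 1 of 4 T cell genes was higher in Model than in Control, 1 higher in LIPUS than in Model and 2 higher in LIPUS than in Control.

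LIPUS_10 was above the other 4 LIPUS libraries in 10 of the 27 tested members (28.2% of all genes tested) and below them in 3 (26.5%), and it had the highest share of mitochondrial reads of all 15 libraries, 83.3%.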
